A study of Mus musculus with 14 samples.

Results

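The myelin and mature oligodendrocyte genes described here are 9 genes, Mbp, Mog, Mag, Mobp, Cnp, Mal, Opalin, Cldn11 and Ermn, out of 18722 genes with a value in at least 1 library. They were chosen by symbol, as structural and surface genes of myelin, and all 9 had a value in every one of the 14 libraries. RNA came from the hippocampus of C57BL6 mice, 1 library per sample. The mice were wild type or Kmt2d+/bGeo, which carry 1 allele of the histone methyltransferase gene Kmt2d with a bGeo (beta-galactosidase and neomycin resistance) reporter insertion. They were gavaged for 2 weeks, from 2 weeks of age, with TAK-418 at 1 mg/kg/day or with its methylcellulose carrier, and the label age is 30 days. TAK-418 inhibits the histone demethylase LSD1, the product of Kdm1a. There were 3 libraries of wild types on vehicle, 3 of mutants on vehicle, 5 of wild types on TAK-418 and 3 of mutants on TAK-418. The labels name no cell type restriction for the allele, and the drug was given to the whole animal. The design text states fewer mice per group than the 5 libraries labelled as wild types on TAK-418, so some of these may share an animal, in which case SEs and p-values that use this group are too small. Replicate numbers follow accession order and only tell libraries apart. No label says that samples of a group were independent litters or cages, so p-values measure the spread between these libraries.

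Oligodendrocytes wrap axons with a multilayered membrane whose layers are held together by a small set of very abundant proteins. Their precursors stop dividing, switch on the transcription factor MYRF, which acts together with SOX10, and then make myelin proteins in large amounts. In the mouse hippocampus this takes place over the first postnatal weeks, so the age of these mice falls within active myelination.

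Upstream sequence was examined because the members are known to share a regulatory program. The table of RefSeq promoters (GRCm38.p6) held the 250 bases before the RefSeq start of 8 of the 9 members. For Mobp and Cnp that start lies inside the GENCODE gene given further on, so the end of the window overlaps the gene, and for Mag it lies upstream of the GENCODE gene. Letters searched on both strands were CTGGCAC or CTGGTAC, a core of the kind bound by MYRF, ACAAAG, a core of the kind bound by SOX factors, and the E-box CAGCTG. The MYRF-type core was found in 3 of 8 members, Mog, Mag and Cnp, against 5.93% of 32851 windows. The SOX-type core was found in 4 of 8, Mag, Mobp, Cnp and Opalin, against 16.5% of windows, and CAGCTG in 0 of 8 against 13.0%. The 4 windows with a MYRF-type core or with the most SOX-type cores are printed 5′ to 3′ on the gene's strand, with the matches in capitals. They are Mog at chr17:37023399-37023648 (minus strand), Mag at chr7:30914923-30915172 (minus), Cnp at chr11:100574689-100574938 (plus) and Mobp at chr9:120149492-120149741 (plus). A match describes letters only.
Mog: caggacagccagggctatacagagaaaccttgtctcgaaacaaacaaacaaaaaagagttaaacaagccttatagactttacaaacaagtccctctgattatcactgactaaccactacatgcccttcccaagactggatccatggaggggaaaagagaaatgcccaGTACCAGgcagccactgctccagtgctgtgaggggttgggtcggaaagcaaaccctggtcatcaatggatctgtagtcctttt
Mag: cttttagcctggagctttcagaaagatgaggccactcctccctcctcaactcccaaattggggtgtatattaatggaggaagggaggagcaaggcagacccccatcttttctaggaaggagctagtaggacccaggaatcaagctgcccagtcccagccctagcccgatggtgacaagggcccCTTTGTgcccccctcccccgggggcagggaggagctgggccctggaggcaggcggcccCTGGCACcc
Cnp: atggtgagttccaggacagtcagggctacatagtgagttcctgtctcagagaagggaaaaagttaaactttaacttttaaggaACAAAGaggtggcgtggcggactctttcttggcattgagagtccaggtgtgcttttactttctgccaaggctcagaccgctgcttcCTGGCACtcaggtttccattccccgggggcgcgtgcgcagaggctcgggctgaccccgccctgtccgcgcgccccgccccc
Mobp: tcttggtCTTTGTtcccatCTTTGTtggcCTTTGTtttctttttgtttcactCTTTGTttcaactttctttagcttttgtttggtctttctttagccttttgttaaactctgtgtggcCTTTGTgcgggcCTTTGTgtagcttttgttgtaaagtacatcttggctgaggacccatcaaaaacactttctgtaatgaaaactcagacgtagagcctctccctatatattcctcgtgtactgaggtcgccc
The core in Mag began 9 bases before the start, that in Cnp 81 and that in Mog 83. Mobp held 6 SOX-type cores between 243 and 120 bases before its start, all in the CTTTGT orientation.

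Relative depth, read from the step size of the values, was 168 M fragments (M is a factor of 1000000) in wild-type TAK-418 replicate 1 and 35.1 to 59.98 M in the other libraries. Kmt2d itself was at 13.8 to 14.2 in wild types on vehicle, 10.6 to 14.4 in mutants on vehicle, 12.5 to 17.99 in wild types on TAK-418 and 9.34 to 14.6 in mutants on TAK-418, so its level did not separate the genotypes. Hippocampal neuron genes were abundant, with Camk2a at a mean of 1128. Summed choroid plexus markers ranged from 24.1 to 6558 in wild types on vehicle, 50.4 to 5131 in mutants on vehicle, 21.0 to 48.8 in wild types on TAK-418 and 27.7 to 621 in mutants on TAK-418. The highest sums were in wild-type vehicle replicate 3 and mutant vehicle replicate 1. In bulk tissue, fewer oligodendrocytes and less RNA per oligodendrocyte cannot be told apart.

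Values below are scaled abundances, the authors' transcript abundances summed per gene and scaled between libraries, on an FPKM-like scale (fragments per kilobase of transcript for each M fragments). Mbp had the highest mean of all 16569 genes tested, 2057 ± 297 (SD, n = 14). Mobp followed at 476 ± 90.9 (rank 86), Mal at 256 ± 29.1 (rank 242), Cldn11 at 190 ± 31.9 (rank 387), Cnp at 172 ± 42.5 (rank 447) and Mag at 147 ± 26.5 (rank 554). Mog was at 74.5 ± 11.5 (rank 1271), Opalin at 27.4 ± 8.10 (rank 3843) and Ermn at 26.3 ± 3.68 (rank 3987). The ranges over libraries did not overlap between Mbp and Mobp, between Mag and Mog, or between Mog and Opalin, while every other neighbouring pair in this order overlapped. The genes lie on 8 chromosomes (GENCODE M21, GRCm38). Mobp is at chr9:120149707-120181484, Mal at chr2:127633226-127656695, Cldn11 at chr3:31149920-31164324, Cnp at chr11:100574904-100591729, Mag at chr7:30899176-30914873, Mog at chr17:37010743-37023398, Opalin at chr19:41061710-41077113 and Ermn at chr2:58045113-58052864, with Mbp on chromosome 18.

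Mbp encodes the cytoplasmic protein that zips the inner faces of the myelin membrane together. Its abundance was 1789, 2766 and 2261 in wild types on vehicle, 1997, 2077 and 2133 in mutants on vehicle, 1613, 2198, 2049, 2147 and 2205 in wild types on TAK-418, and 1616, 1798 and 2153 in mutants on TAK-418. The highest library was a wild type on vehicle, another of that group was among the lowest, and the mutant vehicle libraries lay between them. Mobp, a small basic protein of compact myelin, was at 424, 594 and 550.0 in wild types on vehicle and 498, 439 and 517 in mutants on vehicle. Wild types on TAK-418 had 501, 523, 483, 489 and 543, and mutants on TAK-418 207, 434 and 467. The 3 mutant libraries under the drug were each lower than any of the 5 wild types under it, and replicate 1 was far below the other two. Mal, a raft-associated protein of the myelin membrane, had 219, 326 and 269 in wild types on vehicle, 231, 228 and 253 in mutants on vehicle, 252 to 278 in wild types on TAK-418 and 212 to 263 in mutants on TAK-418. Its coefficient of variation over the 14 libraries, 11.3%, was the smallest of the 9. Cldn11, the claudin of the tight junctions between myelin layers, had 158, 270 and 217 in wild types on vehicle and 177, 182 and 190 in mutants on vehicle. It was at 139 to 202 in wild types on TAK-418 and 149 to 207 in mutants on TAK-418, so all 4 groups overlapped.

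Cnp encodes the cyclic nucleotide phosphodiesterase that keeps cytoplasmic channels of myelin open. It was at 124, 207 and 279 in wild types on vehicle, 144, 148 and 156 in mutants on vehicle, 156, 170, 240, 165 and 168 in wild types on TAK-418, and 158, 131 and 165 in mutants on TAK-418. Mag, a sialic acid-binding adhesion molecule facing the axon, had 110, 174 and 157 in wild types on vehicle and 130, 129 and 144 in mutants on vehicle. Wild types on TAK-418 had 219, 156, 138, 146 and 154 and mutants on TAK-418 135, 121 and 140. For both genes the mutant libraries were close together and fell inside the span of the wild types on vehicle.

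Mog, an immunoglobulin-like protein on the outermost myelin layer, was at 71.6, 96.2 and 88.1 in wild types on vehicle and 70.4, 85.9 and 75.1 in mutants on vehicle. Wild types on TAK-418 had 50.1, 70.2, 68.2, 71.8 and 79.5, and mutants on TAK-418 68.4, 64.5 and 82.9. Opalin, a transmembrane glycoprotein of mature oligodendrocytes, was at 22.6, 41.3 and 37.3 in wild types on vehicle and 27.2, 27.5 and 14.9 in mutants on vehicle. Wild types on TAK-418 had 15.5, 31.8, 28.1, 31.5 and 14.7, and mutants on TAK-418 30.0, 26.9 and 33.6. The 3 low Opalin libraries come from mutants on vehicle and wild types on TAK-418. Ermn, an actin-binding protein of the oligodendrocyte cytoskeleton, had 23.9, 34.4 and 30.1 in wild types on vehicle and 20.6, 23.8 and 26.3 in mutants on vehicle. It was at 25.7 to 29.1 in wild types on TAK-418 and 19.99 to 27.6 in mutants on TAK-418. Wild-type vehicle replicate 1 was the lowest of its group for all 9 members.

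**Figure D1:**
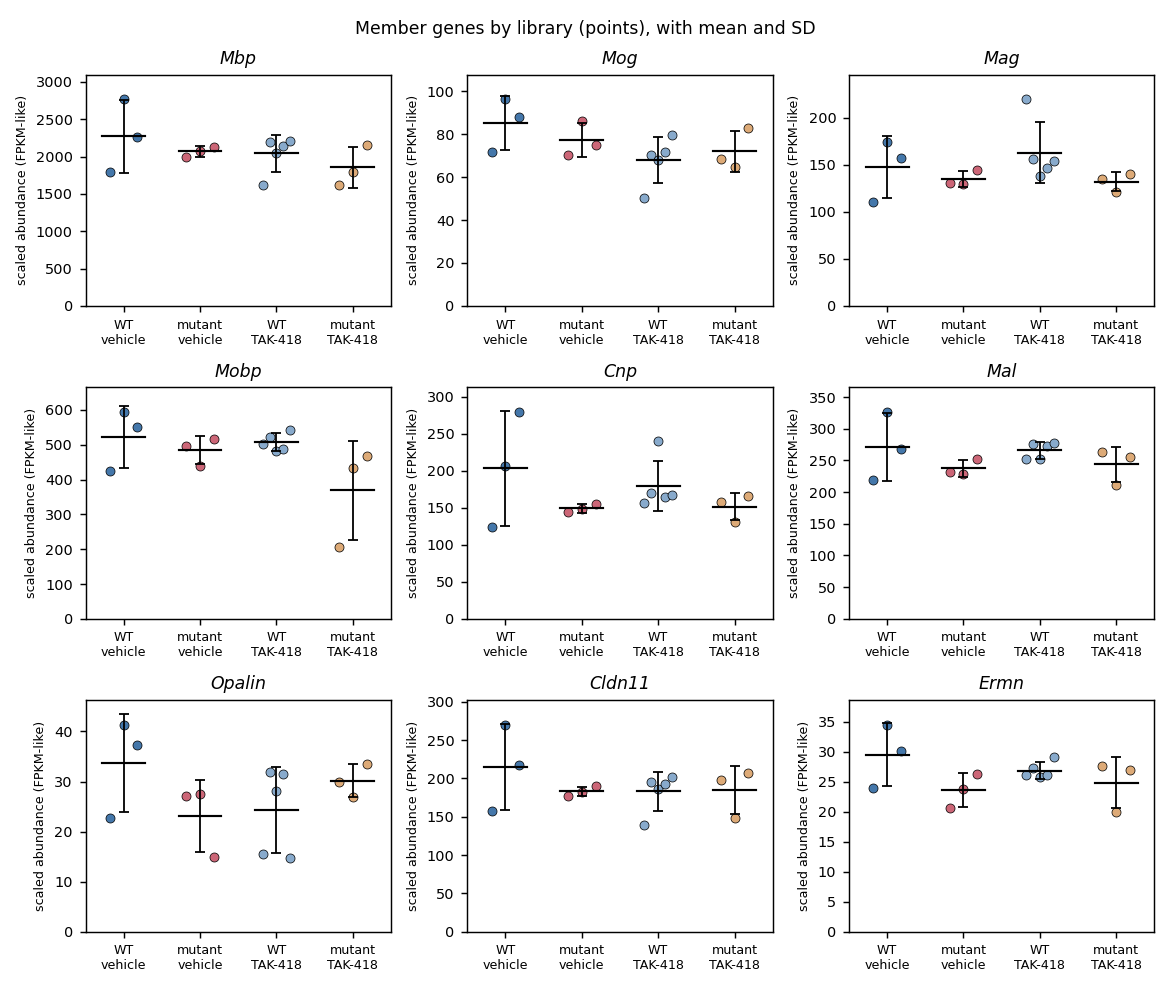
Scaled abundance (FPKM-like, y axis from 0) of each member in each library, by group; bars show the mean and SD. Vehicle wild types spread widely for most members (Mbp 1789 to 2766), and Mobp in 1 mutant on TAK-418 (207) and Opalin in 3 libraries (14.7 to 15.5) stand low.

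Several of the single low and high libraries had an assembled transcript of another length. The most abundant Opalin transcript was 748 to 855 bases long in 11 libraries, and 2376, 2461 and 2406 bases in mutant vehicle replicate 3 and wild-type TAK-418 replicates 1 and 5, where Opalin abundance was low. The longer models carried a longer last exon, ending nearer to the annotated end of the gene. For Mobp the length was 7226 bases in mutant TAK-418 replicate 1, against 2364 to 2434 elsewhere. Mbp, at 1813 to 1835 bases elsewhere, was 2373 bases long in wild-type TAK-418 replicate 1 and 2325 in mutant TAK-418 replicate 1, its lowest libraries. Cnp was 2477 bases long in wild-type vehicle replicate 3 and 2479 in wild-type TAK-418 replicate 3, which had the highest Cnp, against 3701 to 4059. Mag had a shorter 1918-base leading transcript in wild-type TAK-418 replicate 1, its highest library, and Mog and Cldn11 were longest there, at 2882 and 2422 bases, where they were lowest.

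Abundance per kilobase was therefore also multiplied by transcript length, giving a length-weighted estimate (fragments per M, scaled). Mobp in mutant TAK-418 replicate 1 then stood at 1548, above the 1048 and 1122 of replicates 2 and 3. Its 7226-base model ran to chr9:120186056, past the annotated gene end at 120181484, so this value also counts sequence outside the annotated gene. In wild-type TAK-418 replicate 1 the long models of Mog (from chr17:37009419) and Cldn11 (to chr3:31164980) also passed the annotated ends. In most other libraries the leading Mog model ran from chr17:37010468, which also passes the annotated end at 37010743. The 3 libraries low in Opalin abundance had length-weighted Opalin of 35.6, 34.7 and 35.3, while the other libraries had 19.5 to 33.9. Across the 36 pairs of members, the median Pearson r over 14 libraries was 0.452 by abundance and 0.802 by length-weighted value. These correlations are descriptions, since all members share each library and its depth. By the length-weighted value 35 of 36 pairs were over 0.5, against 16 by abundance.

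**Figure D2:**
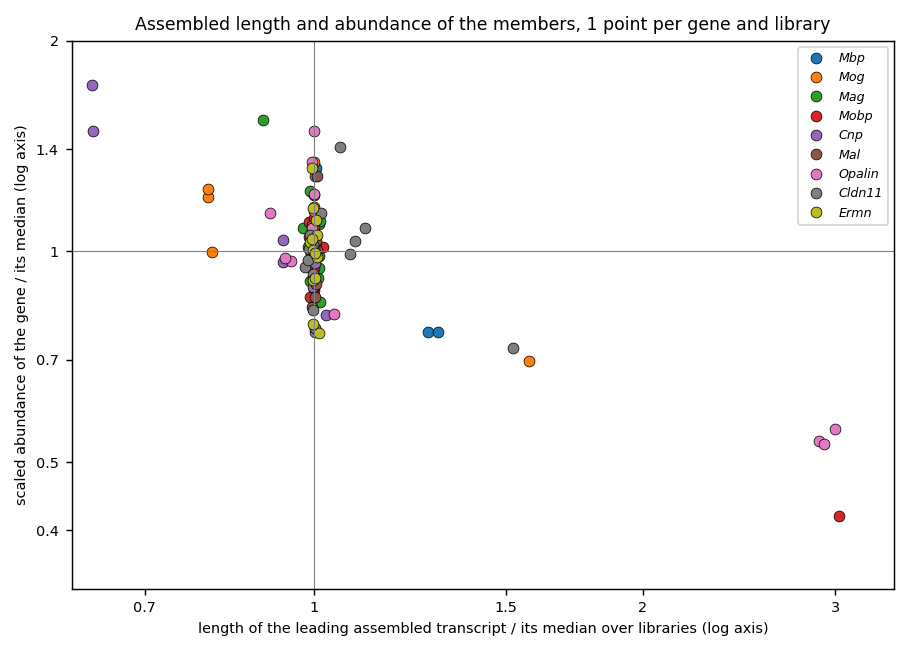
Abundance of each member in each library over its median (y axis, log) against the length of its leading assembled transcript over its median (x axis, log), 1 point per gene and library. Libraries with a leading transcript 3 times as long (3 Opalin points, 1 Mobp point) lie lowest. The highest point is Cnp in wild-type vehicle replicate 3, with a short one.

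The genotype comparison under vehicle asks whether the Kmt2d+/bGeo genotype alone changes these genes. The estimate was below 0 for 9 of 9 members, with a median log2 difference of -0.17, while 48.9% of all genes tested were below 0. By abundance Opalin had the largest difference and Ermn the largest relative to its error. Ermn differed by -0.31 ± 0.140 (SE) and Opalin by -0.53 ± 0.343 on the log2(value + pseudocount) scale. Cnp differed by -0.37 ± 0.240, Cldn11 by -0.20 ± 0.190, Mal by -0.17 ± 0.123, Mog by -0.14 ± 0.162, Mbp by -0.11 ± 0.164, Mag by -0.10 ± 0.178 and Mobp by -0.10 ± 0.242. By limma, 0 of 9 members had an adjusted p under 0.05, as did 0 of 16569 genes (background 0%), and 0 members had an unadjusted p under 0.05, against 5.46% of genes. The unadjusted limma p of Ermn was 0.051 and its adjusted p 0.909. No member had groups that did not overlap (0 of 9, background 4.5% lower and 4.4% higher). The index of the 9 members, their mean log2 deviation, was -0.22, 0.41 and 0.28 in wild types on vehicle and -0.10, -0.05 and -0.07 in mutants on vehicle, an SD of 0.329 against 0.0231. The median difference was -0.32 without wild-type vehicle replicate 1, when 4 members had an unadjusted limma p under 0.05 and 0 were called, and -0.03 without replicate 2. The share of all genes under 0.05 in that fit is not given here, so the count of 4 has no background. With the length-weighted values 9 of 9 were again below 0 (48.4% of all genes), with a median of -0.11 and 0 called (2 of 16569 genes). Of the 9, 1 had an unadjusted limma p under 0.05 (910 of 16569 genes). Opalin then differed by -0.078 ± 0.251 and Cnp by -0.13 ± 0.148, while Ermn, at -0.31 ± 0.140 with an unadjusted limma p of 0.048 and an adjusted p of 0.906, had the largest difference. By abundance the Opalin difference was -0.25 without mutant vehicle replicate 3, the library with the 2376-base transcript, and that of Cnp was -0.11 without wild-type vehicle replicate 3, which had the 2477-base transcript. Without the 2 libraries highest in choroid plexus markers the median was -0.08. In wild-type vehicle replicate 3 the choroid plexus sum was 6558 and the member index 0.28, and in mutant vehicle replicate 1 they were 5131 and -0.10. Markers of the thalamus and habenula, which lie next to the hippocampus, had 7 of 10 tested genes below 0 in this comparison (median -0.13). Their index was -0.0062, 0.10 and 0.081 in wild types on vehicle and -0.13, -0.14 and 0.020 in mutants on vehicle, and their summed level 92.4 to 98.5 and 87.2 to 92.8. Meninges markers had 1 of 8 below 0 (median 0.32), with summed levels of 61.0 to 103 and 75.2 to 115. By limma 0 genes of these 3 marker lists were called here. The part of choroid plexus, thalamic or meningeal RNA in the result was not tested.

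**Figure D3:**
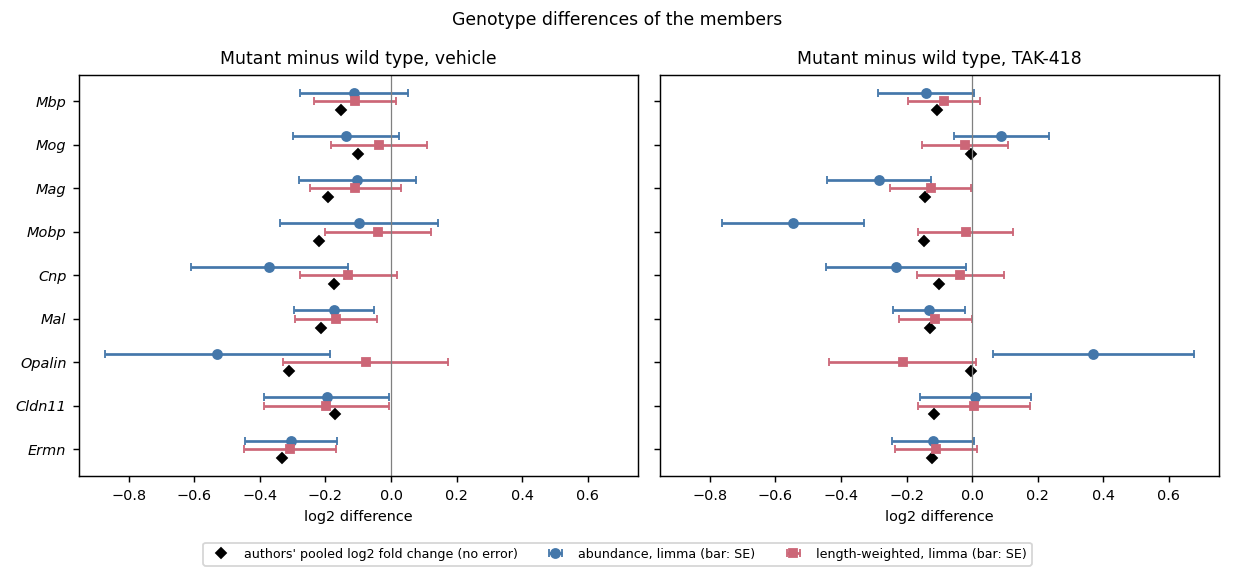
Log2 difference, mutant minus wild type, for the 9 members under vehicle (left) and TAK-418 (right). Circles are limma estimates from abundance and squares from length-weighted values, both with SE, and diamonds are the authors' deposited pooled log2 fold changes without error. All vehicle estimates lie below 0, with Opalin at -0.53 by abundance and closer to 0 when length-weighted.

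Under TAK-418, 6 of 9 members were below 0 in mutants (48.9% of all genes), with a median of -0.13. By limma 0 of 9 were called (background 0.0121%), and 1 member had an unadjusted p under 0.05 (background 4.92%), Mobp, at -0.55 ± 0.217 with an unadjusted limma p of 0.027 and an adjusted p of 0.926. Mobp was also the only member whose groups did not overlap (1 of 9 lower, background 2.37%; 0 of 9 higher, background 2.2%). Its length-weighted difference was -0.02 ± 0.145, with overlapping groups, and by abundance the difference was -0.17 without mutant TAK-418 replicate 1, the library with the 7226-base transcript. Opalin differed by 0.37 ± 0.307 by abundance and -0.21 ± 0.224 by length-weighted value, a change of direction. By the length-weighted values 8 of 9 members were below 0 (52.3% of all genes), with a median of -0.09. Of the 9, 0 were then called (2 of 16569 genes) and 0 had an unadjusted limma p under 0.05 (820 of 16569 genes).

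The drug effect in mutants asks whether treatment moves the mutant value. The median was -0.0019 and 5 of 9 members were below 0 (48.9% of all genes). Estimates ran from -0.48 ± 0.242 for Mobp to 0.41 ± 0.343 for Opalin, and 0 of 9 members were called by limma (background 0.00604%), with 0 at an unadjusted p under 0.05 (background 4.39%). Groups overlapped for every member (0 of 9; background 3.65% lower and 4.54% higher). The length-weighted estimates ran from -0.10 to 0.05. In wild types the drug effect had a median of -0.12, with 8 of 9 below 0 (51% of all genes), and 1 member had an unadjusted limma p under 0.05 (background 8.43%). This was Mog, which differed by -0.33 ± 0.145, with an unadjusted limma p of 0.042 and an adjusted p of 0.574. Its length-weighted difference was -0.049 ± 0.131, and by abundance it was -0.22 without wild-type TAK-418 replicate 1, the library with the 2882-base transcript. By the length-weighted values 0 members had an unadjusted limma p under 0.05 in this contrast (1521 of 16569 genes). None of the 9 was called (background 0.00604%) and none was without overlap (background 2.4% lower and 3.93% higher). Without wild-type vehicle replicate 1 this median was -0.30, with 4 members at an unadjusted limma p under 0.05 and 0 called, and without replicate 2 it was -0.0039. The interaction, the drug effect in mutants minus that in wild types, had a median of 0.14 with 3 of 9 below 0 (48.8% of all genes). By limma 0 of 9 were called (background 0.00604%), with 0 at an unadjusted limma p under 0.05 (background 4.43%). By the length-weighted values the interaction median was 0.024, with 2 of 9 below 0 (52.0% of all genes) and 0 called (3 of 16569 genes). Mutants on TAK-418 against wild types on vehicle had a median of -0.24, with 9 of 9 below 0 (49.5% of all genes) and 0 called (background 0.00604%). The 1 unadjusted limma p under 0.05 (background 5.38%) was that of Mobp (-0.57 ± 0.242, and -0.20 without mutant TAK-418 replicate 1), and 0 of 9 were without overlap (background 3.99% lower and 5.53% higher). By the length-weighted values Mobp differed by -0.10 ± 0.162 in this comparison. The length-weighted median was -0.15, with 9 of 9 below 0 (49.7% of all genes). Of the 9, 0 were then called (4 of 16569 genes) and 0 had an unadjusted limma p under 0.05 (900 of 16569 genes). By abundance, the median for mutants on TAK-418 against wild types on vehicle was -0.38 without wild-type vehicle replicate 1. In that fit 6 members had an unadjusted limma p under 0.05 and 0 were called, and the interaction median was 0.32. The 8 contrasts share libraries, so their agreement in sign is no further evidence. Averaged over both treatments, the genotype difference was below 0 for 9 of 9 (48.7% of all genes), with a median of -0.15 and 0 called (background 0.00604%). Only Ermn had an unadjusted limma p under 0.05, of 0.044 (background 5.85%). Without wild-type vehicle replicate 1 this median was -0.22, with 5 members at an unadjusted limma p under 0.05 and 0 called, and without replicate 2 it was -0.08, with 7 of 9 below 0 and 0 at an unadjusted limma p under 0.05. Averaged over genotypes, the drug difference had a median of -0.05 with 0 called (background 0.0121%) and 0 at an unadjusted limma p under 0.05 (background 8.26%). Without wild-type vehicle replicate 1 it was -0.21, with 2 members at an unadjusted limma p under 0.05 and 0 called. For the fits with a library left out, the shares of all genes under 0.05 are not given here, so their member counts have no background.

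Alternative exons of the members were then compared. Mbp has a second and a sixth exon that are spliced in or out, and inclusion of the second falls as oligodendrocytes mature. The exon 2 share of Mbp abundance was 25.5, 25.5 and 22.1% in wild types on vehicle and 25.5, 27.0 and 24.6% in mutants on vehicle, and 23.3 to 35.5% in wild types on TAK-418 and 26.1 to 32.3% in mutants on TAK-418. Exon 6 was included in 16.4 to 25.6% over all libraries. Transcripts lacking both exons made up 59.1 to 77.9%, those with both 14.7 to 20.2% and those with exon 2 alone 4.78 to 15.4%. Exon 6 alone was found in 8 libraries, at up to 5.41%. These are combinations in the assembled models, and how often both exons share an RNA molecule was not tested. In wild-type TAK-418 replicate 1 and mutant TAK-418 replicate 1 all assembled Mbp transcripts began at the upstream exon, whose splice donor lies at the start of the gene. These were the libraries with the highest exon 2 shares (35.5 and 32.3%), which come from the same assembled models. In the other libraries none of the assembled Mbp abundance began there. Where Mbp RNA itself begins in these libraries was not tested.

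The Mag alternative exon, chr7:30900352-30900396 on the minus strand (GRCm38), decides between small and large MAG, which differ in their cytoplasmic tails. It has 45 bases, of which the first 30 are coding and give the 10 codons of the small form's own end. The coding part is shown in capitals after the last 18 bases of the exon before it.
Mag alternative exon: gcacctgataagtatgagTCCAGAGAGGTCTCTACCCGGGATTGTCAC
Inclusion was 65.4, 56.9 and 52.6% in wild types on vehicle and 57.3, 51.3 and 51.0% in mutants on vehicle. Wild types on TAK-418 had 45.4, 46.7, 56.6, 45.7 and 49.0%, and mutants on TAK-418 58.1, 58.6 and 53.4%. Inclusion was highest in 1 wild type on vehicle, and 4 of the 5 wild types on TAK-418 were below every library of the other groups. Its mean was 58.3 ± 6.50 (SD, n = 3) in vehicle and 48.7 ± 4.62 (n = 5) in wild types on TAK-418. That difference and the one between wild types on TAK-418 and mutants on TAK-418 each had an exact permutation p of 0.0536 (two-sided), with an adjusted p of 0.889 over 40 tests. A 53-base leader exon of Mag was in 0 to 23.4% of its abundance. The first exon of the assembled Cnp transcripts varied by library, with the most upstream first exon in 6.26 to 68.0% of Cnp abundance. Over 8 exon and start site events and 5 contrasts, 0 exact permutation tests passed an adjusted p of 0.05, and the lowest adjusted p was 0.889. With 3 against 3 libraries no exact p can be below 0.1, and with 3 against 5 none below 0.0179.

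**Figure D4:**
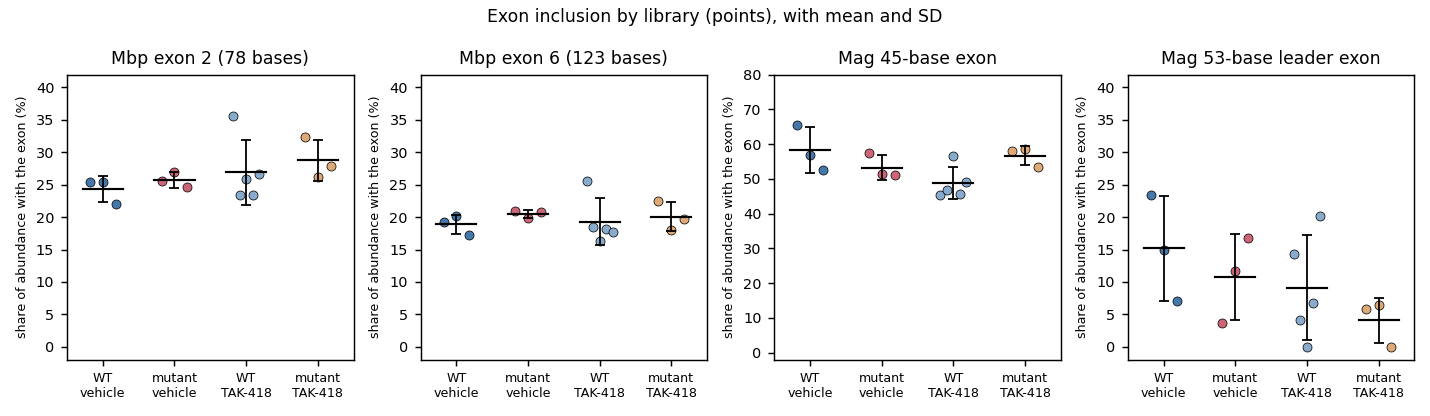
Share of abundance with each exon (%) by library and group, with mean and SD. The Mag 45-base exon lies at 45.4 to 56.6% in the wild types on TAK-418 and 51.0 to 65.4% elsewhere, and 1 wild type on TAK-418 has the highest Mbp exon 2 share (35.5%).

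The authors' deposited tables give 1 pooled FPKM per group. For vehicle, the authors' deposited table lists Mbp at 1745 in wild types and 1570 in mutants, a log2 fold change of -0.15, with a q-value of 1.00. Ermn was at 20.3 and 16.1 in the authors' deposited table, a change of -0.33 with p 0.00615 and q 0.287, and Opalin at 15.1 and 12.2, a change of -0.31 with p 0.0252 and q 0.696. Under vehicle the authors' deposited table had 9 of 9 members below 0 (median -0.19, against 52% of loci below 0), 2 of them with p under 0.05 (background 4.32%) and 0 with q under 0.05 (background 0.224%). For mutants on TAK-418 relative to wild types on vehicle, the authors' deposited table had 9 of 9 below 0 with a median of -0.18 (52.2% of loci), 1 with p under 0.05 (Ermn; background 4.49%) and 0 with q under 0.05 (background 0.324%). With both genotypes on TAK-418, the authors' deposited table had 9 of 9 below 0 with a median of -0.12, although only 30.9% of loci were, 0 with p under 0.05 (background 4.1%) and 0 with q under 0.05 (background 0.218%). For mutants on vehicle relative to wild types on TAK-418, the authors' deposited table had 9 of 9 below 0 with a median of -0.12 (30.2% of loci), 0 with p under 0.05 (background 6.48%), 0 with q under 0.05 (background 0.611%) and 0 with q under 0.01 (background 0.503%). The 4 tables share groups, so these counts are not independent. In the authors' deposited tables the Mobp locus also holds 3 clone genes, so its value there is joint.

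Other oligodendrocyte genes were grouped into lists chosen by function. In the genotype comparison under vehicle, other myelin structure genes had 8 of 9 below 0 (median -0.17), lipid enzymes of myelin 7 of 9 (-0.15), transcription factors 7 of 9 (-0.14), junction and axon contact genes 7 of 8 (-0.07) and other mature oligodendrocyte markers 10 of 14 (-0.10). Precursor and differentiating genes had 5 of 12 below 0, with a median of 0.03. For the drug effect in mutants the counts below 0 were 8 of 9 for other myelin structure (median -0.06), 4 of 9 for lipid enzymes (0.02), 4 of 9 for transcription factors (0.013), 3 of 8 for junction and axon contact genes (0.017), 10 of 14 for other mature markers (-0.06) and 9 of 12 for precursor genes (-0.06). By limma 0 genes of these lists rose or fell in any of the 8 contrasts. Cers2, a ceramide synthase, and Scd1, a fatty acid desaturase, were at means of 34.6 ± 3.13 and 43.4 ± 3.09 over 14 libraries, and Trf (transferrin) and the adhesion gene Cadm4 at 126 ± 14.5 and 90.7 ± 5.01. The precursor genes Gpr17 and Pdgfra were at 30.3 ± 4.25 and 13.6 ± 1.04. Enpp2, which the choroid plexus also makes, was at 739 and 774 in the 2 libraries with the highest choroid plexus sums and 61.4 to 184 elsewhere. Olig1 was at 1.69 to 2.91 in 6 libraries and 67.3 to 86.0 in 8, across all groups. Plekhb1, of the myelin structure list, ranged from 43.0 to 192, Nfasc, the axon contact gene for neurofascin, from 54.3 to 117, and the transcription factor gene Zfp488 from 0 in 1 library to 133. The part of transcript assembly in these wide ranges, and in that of Olig1, was not tested.

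**Figure D5:**
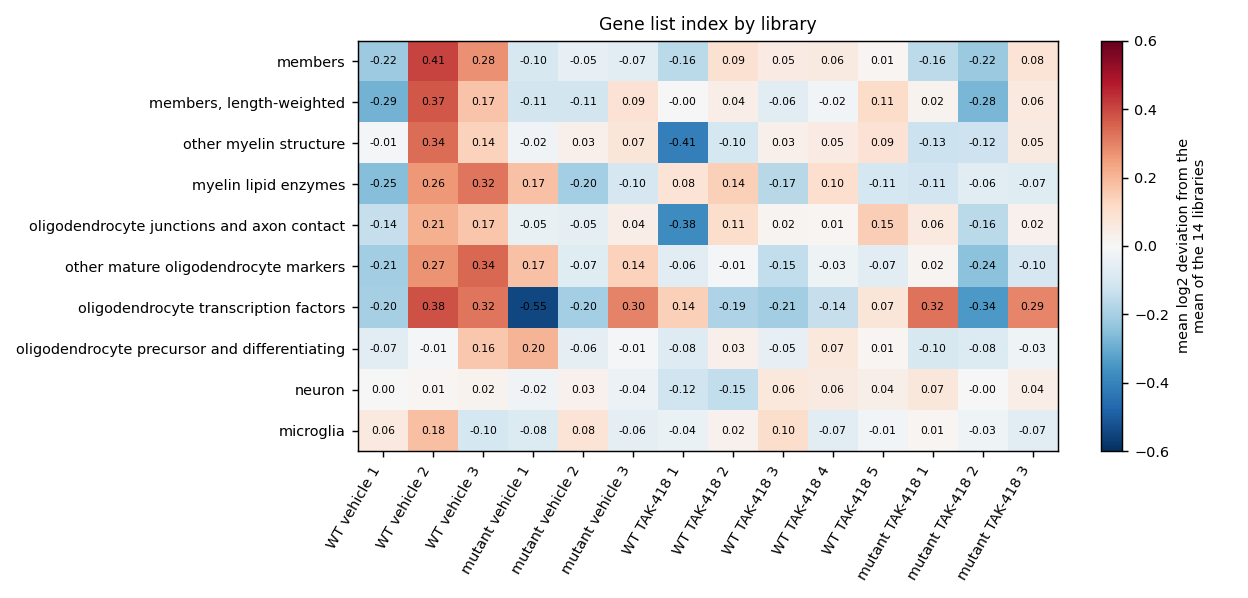
Mean log2 deviation of each list from its mean over the 14 libraries (colour and number), by library. The members' index runs from -0.22 to 0.41, and wild-type vehicle replicate 2 is the highest library for the members and for other myelin structure.

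The genes most like the members were ranked by Pearson r over the 14 libraries with the mean of the members' standardised log2 values, among 9810 genes with a mean abundance of at least 5 and a value in every library. Among the 10 highest were Dusp7 at 0.884, Tmem123 at 0.876, Dnajb2 at 0.854, Bcas1 at 0.853, S1pr5 at 0.849, Lpar1 at 0.848, Pdlim2 at 0.845, Mcam at 0.845 and Sema4d at 0.842. Lpar1 is in the list of other mature oligodendrocyte markers, and the others named here are in none of the lists used. These values describe the libraries and share their depth.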

How the data were processed

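RNA-seq of mouse hippocampus was analysed in 14 libraries. Per the file headers, the authors assembled transcripts per library with CLASS 2.1.7. The deposited abundance of each transcript is a score on a scale like FPKM, worked out from the values, which step in whole fragments for 92.0 to 97.7% of them (within 0.02). Per the submitters' processing notes, FastQC, TopHat2 2.1.0 and the mm10 build were used. The authors' deposited group tables hold FPKM, log2 fold changes, p-values and q-values, in a Cuffdiff layout per the file headers. Their version and settings are not given in the sources used here.

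Transcripts were assigned to GENCODE M21 genes by a shared intron, or, with 1 exon, by at least 50% overlap (82.2% assigned). Abundances were summed per gene, scaled by median of ratios, and tested on log2(value + 0.884) with limma 3.58.1 (R 4.3.3; trend; all 14 libraries, 4 group means), Benjamini-Hochberg adjusted over 16569 genes with a value in at least 3 libraries. The test was tested on simulated data. Isoform shares were compared by exact permutation tests. The members and lists were chosen with earlier results of these data known. Named genes are all 9 members, called list genes or else the 2 most abundant of each lineage list, and the 10 genes most like the members. 1 gene that this rule names is not reported here. Other pseudocounts, scalings, filters, gene values and left-out libraries were tried. Unused sample columns numbered 0. Python 3.11.15 was used.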

Additional observations from a re-analysis of the deposited data

Results flagged for a closer look

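In the group of 5 wild types on TAK-418, 28 measures of the members and of depth were checked for 1 library distant from the rest of its group, and 9 had one. Chance marks about 1 group in 20, and these measures are not independent. Wild-type TAK-418 replicate 1 had a relative depth of 168 M, against 56.1 M for the next. In it Mbp was at 1613 against a nearest value of 2049, Cldn11 at 139 against 186, and Mag at 219 against 156. The Mbp exon 2 share was 35.5% against 26.6%, the exon 6 share 25.6% against 18.5%, and the share of assembled Mbp from the upstream first exon 100% against 0. Replicate 3 had Cnp at 240 against 169.8, and replicate 5 a length-weighted Mog of 147 against 133. The 3 groups of 3 libraries were not screened. The assembled lengths that go with these values are given above, and their part was not tested.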

How the results depend on the processing

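No paired analysis was possible because the labels give the samples no replicate numbers, and the numbers used here follow accession order within a group and pair nothing. Of the settings run, 0 members were called by limma in any contrast under any of them. In the main setting 0 to 2 of 16569 genes were called per contrast, and by the length-weighted values 2 to 12. A count of 0 among 9 members therefore says little about them. The shares of all genes called under the other settings are not given here. Leaving out 1 library at a time, the median member difference ran from -0.32 to -0.03 for genotype under vehicle, -0.30 to -0.0039 for the drug in wild types, -0.08 to 0.12 for the drug in mutants, -0.18 to -0.03 for genotype under TAK-418, -0.38 to -0.09 for mutants on TAK-418 relative to wild types on vehicle, 0.025 to 0.32 for the interaction, -0.22 to -0.08 for genotype overall and -0.21 to -0.00072 for the drug overall. The ends at -0.32, -0.30, -0.38, 0.32, -0.22 and -0.21 are without wild-type vehicle replicate 1, and the cause was not tested. Without wild-type vehicle replicate 2 the genotype difference under vehicle turned to 0.040 for Mbp, 0.030 for Mag and 0.0015 for Mobp, whose lowest values, without replicate 1, were -0.27, -0.30 and -0.24. Isoform tests also called 0, but the smallest exact permutation p they can reach leaves little room for a call. It is 0.1 with 3 against 3 libraries and 0.0179 with 3 against 5. At a q-value of 0.01 the authors' tables called 0 members. The background there was 0.503% of loci for mutants on vehicle relative to wild types on TAK-418, and 0% in each of the other comparisons. Fits without the 2 libraries highest in choroid plexus markers, and without the 2 libraries with assembled Mbp starts upstream, were added after seeing the data and called 0 members. The number of libraries, 3 to 5 per group, limits what size of difference can be called.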
